A study of Homo sapiens with 4 samples.

Results

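The genes described here are the collagens, chosen by symbol: COL, a number, A and a second number. Of 20163 protein-coding genes on the 24 main chromosomes of the human genome (GENCODE release 44 mapped to GRCh37), 44 carried such a symbol. Trimethylation of histone H4 at lysine 20 (H4K20me3) was measured by immunoprecipitating chromatin and sequencing its DNA (ChIP-seq), in IMR90, an established line of human lung fibroblasts that divides a limited number of times in culture. The first group was proliferating (PRO), at population doubling (PD) 32, and the other had reached PD 86, where division had ceased in replicative senescence (RS). Both were grown in a low-oxygen atmosphere, and the labels name no drug or transgene for either. Each group was profiled once with each of 2 rabbit antibodies against H4K20me3, one from Millipore and one from Cell Signaling Technology, giving 4 samples. All 4 came from this 1 line. The study calls its RS experiments independent, and the sources used here do not say so for PRO.

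The data analysed were 3 lists of genomic positions: the peaks that both antibodies shared in PRO, those that both shared in RS, and regions that the authors' DiffBind comparison called different between PRO and RS. The PRO list held 2836 peaks over 3.44 Mb with a median length of 601 bp. The RS list held 35535 peaks over 38.1 Mb with a median of 801 bp. The DiffBind list held 18711 regions over 34.6 Mb with a median of 1601 bp, and it gives neither the direction nor the size of the difference. Depth was not analysed here, each group is 1 merged list, and counts below are therefore described without a test between groups.

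Collagens are mostly secreted proteins whose chains carry long runs of the triplet glycine-X-Y, which lets 3 chains wind into a triple helix. Fibroblasts are the main makers of the fibrillar collagens of types I, III and V in connective tissue, whereas other types form basement membranes, networks or links between fibrils and cells. H4K20me3 is a mark of silent chromatin, best known from the heterochromatin around centromeres and from repeated DNA. Gene expression is not in these lists, so "expressed" below is knowledge about fibroblasts and not a measurement in these cells, and no marker gene could be used to check the cell type.

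A few stretches of sequence serve as examples of the regions, each printed as 300 bases of GRCh37 on the strand of the gene. The first 3 show coding exons of collagens under a region, with coding bases in capitals, although most regions in collagens lay in introns. They come from a DiffBind region of COL2A1 at chr12:48372351-48372650, a DiffBind region of COL16A1 at chr1:32156944-32157243 and an RS peak of COL7A1 at chr3:48610607-48610906, each on the minus strand.

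COL2A1 DiffBind: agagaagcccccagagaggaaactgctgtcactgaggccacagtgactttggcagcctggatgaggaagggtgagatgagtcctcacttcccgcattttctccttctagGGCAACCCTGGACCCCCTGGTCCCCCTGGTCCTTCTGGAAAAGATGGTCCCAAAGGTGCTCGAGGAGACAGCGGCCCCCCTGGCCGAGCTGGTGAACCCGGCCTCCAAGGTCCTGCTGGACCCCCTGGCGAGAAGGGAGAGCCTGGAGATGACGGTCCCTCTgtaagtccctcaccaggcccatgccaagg

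COL16A1 DiffBind: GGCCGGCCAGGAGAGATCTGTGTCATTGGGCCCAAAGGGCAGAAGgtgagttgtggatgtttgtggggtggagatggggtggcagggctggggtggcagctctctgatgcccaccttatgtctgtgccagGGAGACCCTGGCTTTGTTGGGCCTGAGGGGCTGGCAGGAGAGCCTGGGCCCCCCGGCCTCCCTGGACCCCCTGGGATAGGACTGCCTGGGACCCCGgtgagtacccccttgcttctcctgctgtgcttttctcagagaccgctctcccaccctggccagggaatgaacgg

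COL7A1 RS: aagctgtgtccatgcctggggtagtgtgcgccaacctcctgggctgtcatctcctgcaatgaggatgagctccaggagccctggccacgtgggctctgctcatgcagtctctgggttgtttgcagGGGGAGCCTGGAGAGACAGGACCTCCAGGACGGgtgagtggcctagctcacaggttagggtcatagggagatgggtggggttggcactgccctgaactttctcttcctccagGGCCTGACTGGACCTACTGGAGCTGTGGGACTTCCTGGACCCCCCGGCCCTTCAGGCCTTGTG

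Over most of these exons a codon that starts with GG, for the glycine of the triplet, recurs at a spacing of 3 codons. The other 3 stretches have CpG dinucleotides in capitals. They come from the only PRO peak in a collagen (COL12A1, chr6:75915151-75915450, minus strand), an RS peak with no repeated sequence (COL6A6, chr3:130273451-130273750, plus strand) and the DiffBind region just past the end of COL1A1 (chr17:48260902-48261201, minus strand).

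COL12A1 PRO: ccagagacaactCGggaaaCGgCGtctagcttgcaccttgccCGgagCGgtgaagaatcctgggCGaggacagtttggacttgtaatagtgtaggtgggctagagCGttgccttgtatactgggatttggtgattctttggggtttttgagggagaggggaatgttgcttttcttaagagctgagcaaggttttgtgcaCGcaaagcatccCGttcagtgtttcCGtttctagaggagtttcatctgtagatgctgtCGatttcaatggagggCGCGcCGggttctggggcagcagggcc

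COL6A6 RS: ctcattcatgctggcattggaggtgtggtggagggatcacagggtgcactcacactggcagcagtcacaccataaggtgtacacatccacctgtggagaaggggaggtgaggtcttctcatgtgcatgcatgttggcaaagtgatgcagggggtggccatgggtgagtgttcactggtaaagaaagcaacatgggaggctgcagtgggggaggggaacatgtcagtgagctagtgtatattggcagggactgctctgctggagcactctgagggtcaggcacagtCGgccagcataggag

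COL1A1 DiffBind: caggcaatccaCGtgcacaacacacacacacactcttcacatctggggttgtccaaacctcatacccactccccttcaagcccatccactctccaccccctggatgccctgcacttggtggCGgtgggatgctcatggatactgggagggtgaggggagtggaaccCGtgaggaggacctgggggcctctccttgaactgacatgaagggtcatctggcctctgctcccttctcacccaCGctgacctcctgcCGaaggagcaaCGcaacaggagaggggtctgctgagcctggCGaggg

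The COL12A1 stretch held 14 CpG dinucleotides, the COL1A1 stretch 7 and the COL6A6 stretch 1.

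The first question was how many collagen genes carried H4K20me3 in each state. A gene was counted when a region shared at least 1 base with its body, from the first to the last annotated base. In PRO, 1 of 44 collagens had a peak in its body, beside 3.97% of all coding genes. In RS, 17 of 44 (38.6%) had one, beside 21% of all coding genes. DiffBind regions lay in 16 of 44 (36.4%), beside 18.3% of all coding genes. The gene with the PRO peak, COL12A1, had no region of the other lists in its body. With a single such collagen this says little, although 68.2% of the coding genes with a PRO peak also had an RS peak. RS peaks and DiffBind regions lay together in 11 collagens, beside 14.6% of coding genes. RS peaks alone lay in 6, beside 5.37%, and DiffBind regions alone in 5, beside 3.51%. No region of any list lay in 21 collagens, beside 74.2% of coding genes.

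Collagens are long genes, and a long gene has more room for a peak. Their bodies ran from 17.3 to 494 kb with a median of 145 kb, against a median of 27.2 kb for all coding genes. To allow for this, coding genes were split by length into 10 classes of equal size, and the share of each class with a region was summed over the 44 collagens. The sum is the number of genes that 44 coding genes of the same lengths would give on average, called the length-matched number below. For RS it was 18.9 genes, above the 17 observed. For DiffBind it was 15.9, next to the 16 observed, and for PRO it was 2.87 against 1. For RS and DiffBind together it was 14.2 against 11, for RS alone 4.11 against 6, for DiffBind alone 1.66 against 5, and for no list 22.8 against 21. In the count of genes, then, the collagens as a family did not stand apart from genes of like length in RS or DiffBind.

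The covered length lay further below genes of like length than the counts did. RS peaks covered 37.0 kb of the 6.69 Mb of collagen bodies, or 0.554%, where the length-matched share was 0.885%. DiffBind regions covered 47.6 kb, or 0.712%, where it was 0.900%. The PRO peak covered 0.0150%, where it was 0.0481%. In all 3 lists the collagens were covered to a smaller share than coding genes of like length, a description over 44 genes with no replicate error. The length-matched share pools the bases of all genes of a class, so a few heavily covered genes can raise it. Among coding genes in the length range of the collagens, RS peaks covered up to 93.5% of a body. Leaving out zinc finger and other repetitive gene families was tried for the counts and not for the covered share.

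**Figure D1:**
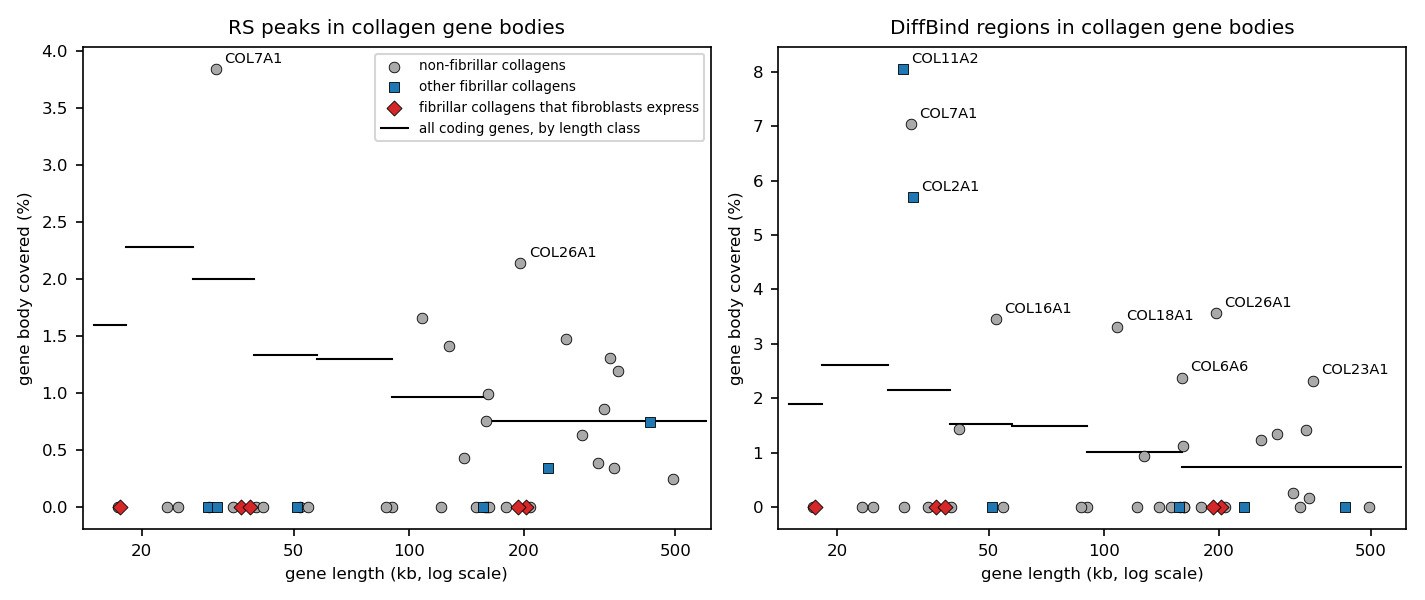
Each of the 44 collagens is a point at its gene length (kb, log axis) and the percent of its body covered by RS peaks (left) or DiffBind regions (right), with black bars for the covered percent of all coding genes in the same length class. The 5 fibrillar collagens that fibroblasts express (red diamonds) lie at 0 in both panels, while COL7A1 reaches 3.84% in RS and COL11A2 reaches 8.05% in DiffBind.

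Promoters, the 2000 bp on either side of the gene start, were almost free of regions. A PRO peak lay in 1 of 44 collagen promoters (2.27%), beside 2% of coding promoters, and it was the COL12A1 peak again. RS peaks lay in 0 of 44, beside 4.48% of coding promoters, and DiffBind regions in 0 of 44, beside 3.58%. Of the regions inside collagen bodies, the RS peak nearest to a gene start was 4.79 kb inside COL23A1. The nearest such DiffBind region was 5.09 kb inside the same gene. Both distances run to the middle of the region, and regions outside the bodies were not measured in this way. At those background shares only about 1 or 2 of 44 promoters would carry a region, so a count of 0 is close to the background.

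The main comparison set the fibrillar collagens that fibroblasts express against all other collagens. COL1A1 and COL1A2 encode the chains of type I collagen, COL3A1 the chain of type III, and COL5A1 and COL5A2 chains of type V, which starts and limits the growth of type I fibrils. None of these 5 genes had a PRO peak, an RS peak or a DiffBind region in its body or its promoter. Of the other 39 collagens, 17 had an RS peak and 16 a DiffBind region in the body.

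The 5 genes differ widely in length, and so in the share of like genes that had a peak. COL1A1 spans 17.5 kb on chromosome 17, and 7.64% of coding genes of its length class had an RS peak. COL1A2 (36.3 kb, chromosome 7) and COL3A1 (38.4 kb, chromosome 2) fall in a class where 13.4% did. These 3 genes are short enough that an empty body is the usual state. COL5A1 (203 kb, chromosome 9) and COL5A2 (193 kb, chromosome 2) fall in the longest class, where 71.6% had an RS peak and 59.0% a DiffBind region. That class ran from 160 to 2474 kb, and an empty body was the less frequent state in it. Much longer genes are in the class, so the shares at about 200 kb can be lower. COL26A1 and COL28A1 are of similar length, 196 and 180 kb. Over these 2 genes the 200 coding genes nearest in length gave 1.13 for RS and 0.915 for DiffBind, where the class gave 1.43 and 1.18.

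Summed over the 5 genes, the length-matched number was 1.78 for RS, 1.55 for DiffBind and 0.305 for PRO, against 0 in each. With the nearest 200 coding genes in length in place of the classes it was 1.57, 1.26 and 0.195. For the other 39 collagens the length-matched number was 17.1 for RS, against 17 observed, and 14.4 for DiffBind, against 16. In RS and DiffBind the 5 expressed fibrillar genes thus lay below genes of like length by between 1 and 2 genes, and in PRO by less than 1. The other 39 were next to theirs in RS and above it by between 1 and 2 genes in DiffBind. Gaps of this size were not tested, with 5 genes and 1 list per group, and COL3A1 and COL5A2 are neighbours on chromosome 2 and share their surroundings.

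Within the longest class, which began at 160 kb, 12 of 18 collagens had an RS peak. The 6 without one were COL5A1, COL5A2, COL4A2, COL8A1, COL13A1 and COL28A1. COL4A2 encodes a basement membrane chain, COL8A1 a short-chain collagen of vessel walls and the eye, COL13A1 a transmembrane collagen, and COL28A1 a collagen found around peripheral nerves. Both long expressed fibrillar genes were therefore in this set, next to 4 collagens of other kinds.

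The surroundings of the 5 genes were not empty. In the 100 kb on either side of the body, RS peaks covered 1.10% around COL1A1, 1.40% around COL1A2 and 1.20% around COL3A1. They covered 4.60% around COL5A1 and 1.60% around COL5A2, where the median over all coding genes was 0.600%. All 5 bodies were at 0, as were the body medians of the other collagens and of all coding genes. All 5 RS flanks were above the coding flank median of 0.600%. The flank median of the other collagens, 1.00%, was above it too, but their values ran from 0 to 5.20%, so some lay below it. DiffBind flanks were mixed: COL1A1 (3.20%) and COL1A2 (1.60%) lay above the coding median of 0.801%, and COL3A1 (0.401%), COL5A1 (0.501%) and COL5A2 (0.601%) below it. Over 1 Mb on either side, the values were 0.811% for COL1A1, 0.971% for COL1A2, 1.79% for COL3A1, 2.45% for COL5A1 and 1.98% for COL5A2, with a coding median of 0.941%. A body below its flanks is the common case: it held for 32 of 44 collagens and 59.3% of coding genes at 100 kb, and for 38 of 44 collagens and 86.5% of coding genes at 1 Mb.

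**Figure D2:**
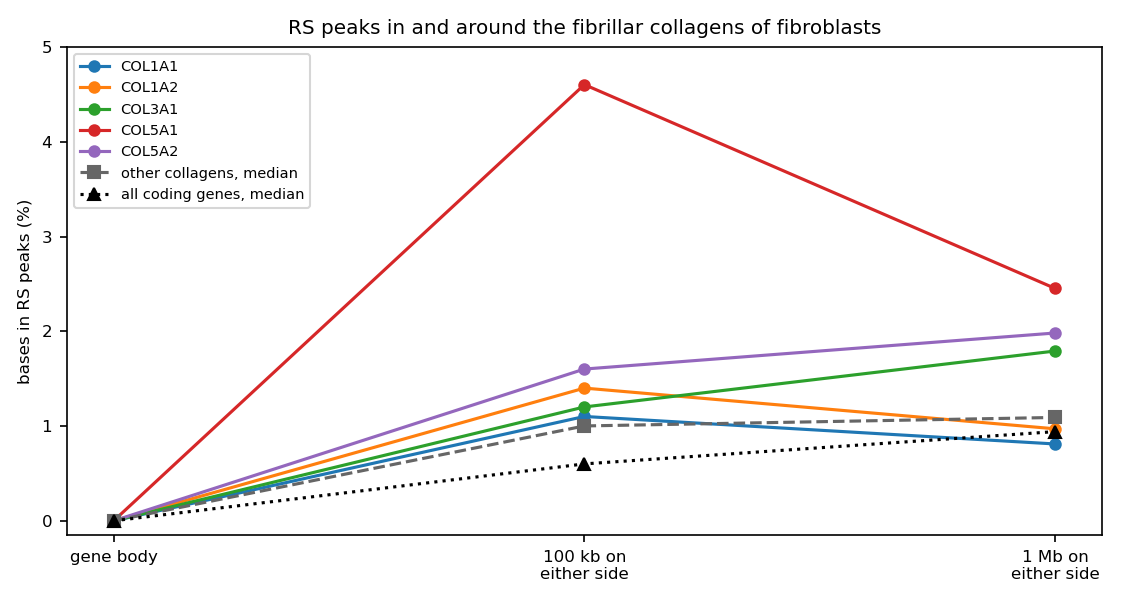
The vertical axis is the percent of bases in RS peaks, and the horizontal axis gives the gene body, the 100 kb on either side and the 1 Mb on either side for each of the 5 expressed fibrillar collagens, with medians of the other collagens and of all coding genes. All 5 bodies sit at 0, as do the body medians of the other collagens and of all coding genes. The 100 kb flanks of the 5 genes run from 1.10% (COL1A1) to 4.60% (COL5A1).

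The nearest regions lay at quite different distances. For COL5A1 an RS peak of 5601 bp (chr9:137739001-137744601) began 2.31 kb past the gene end and lay over 11 microRNA genes, among them the MIR3689 cluster, with 5.74% of its 75-base windows occurring elsewhere in the genome. For COL5A2 the nearest RS peak was 18.4 kb upstream, for COL1A1 it was 23.2 kb upstream and for COL3A1 it was 43.9 kb upstream. None of these 4 peaks touched a coding gene.

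COL1A2 was the only one of the 5 whose nearest regions of all 3 lists lay at the same place. A PRO peak of 601 bp, an RS peak of 2801 bp and a DiffBind region of 3201 bp overlapped at chr7:93948601-93951801, 72.4 kb upstream of the gene at the nearest, over 2 long non-coding RNA genes. For the other 4 genes the nearest PRO peak was 165 kb away (COL5A1), 713 kb (COL5A2), 925 kb (COL3A1) and 1592 kb (COL1A1).

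COL1A1 had the closest DiffBind region of the 5, whose edge lay 260 bases past the 3′ end of the gene. It spanned 2601 bp (chr17:48258601-48261201) over a histone H1 pseudogene, H1-9P, held no repeated 75-base window, and overlapped no part of COL1A1. The last stretch of sequence printed above is its end next to the gene. When bodies were extended by 5000 bp on either side, this region brought COL1A1 into the DiffBind count and the microRNA-rich peak brought COL5A1 into the RS count. The statement that the expressed fibrillar collagens were free of regions therefore holds for annotated bodies and 2000 bp promoters and not for wider windows.

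The other 6 fibrillar collagens include COL5A3, a further type V chain gene that was left out of the expressed list. The rest are best known from other tissues, cartilage among them. COL24A1 (428 kb) had 4 RS peaks covering 0.749% of its body and COL11A1 (232 kb), a cartilage chain, had 1 covering 0.345%. Neither had a DiffBind region. COL2A1 (31.6 kb), the main collagen of cartilage, had 1 DiffBind region of 1801 bp covering 5.70%, and COL11A2 (29.8 kb) had 1 of 2401 bp covering 8.05%. Neither had an RS peak. COL5A3 and COL27A1 had no region of any list. For these 6 genes the counts, 2 in RS and 2 in DiffBind, were next to the length-matched numbers of 2.29 and 1.97.

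The RS peaks of COL24A1 were rich in repeated sequence. The shares of 75-base windows that occur elsewhere in the genome were 96.0%, 82.7%, 75.9% and 55.8% in its 4 peaks. Reads from such sequence can be placed at several sites, and how they were placed here was not tested.

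Basement membrane collagens form sheet-like networks under epithelia and around vessels. Their 6 genes lie in 3 head-to-head pairs, COL4A1 with COL4A2, COL4A3 with COL4A4, and COL4A5 with COL4A6. RS peaks lay in COL4A4 (2 peaks, 0.990%), COL4A5 (4 peaks, 1.48%) and COL4A6 (2 peaks, 0.635%), against a length-matched number of 3.65. DiffBind regions lay in COL4A5 (2 regions, 1.24%) and COL4A6 (2 regions, 1.34%), against 3.02. COL4A1 and COL4A2, the chains present in nearly all basement membranes, had none, and COL4A3 had none either. The X-linked pair was the only one with RS peaks in both genes.

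Type VI collagen forms beaded filaments in most connective tissue. Its main chains, COL6A1, COL6A2 and COL6A3, span 23.3, 34.7 and 90.3 kb and had no region of any list. The chains of narrower expression did: COL6A5 (139 kb) had 1 RS peak covering 0.431%, and COL6A6 (160 kb) had 1 RS peak covering 0.751% and 2 DiffBind regions covering 2.38%. This split by known expression, which was not measured here, is also a split by length. In these 5 genes expression and length cannot be told apart. The COL6A6 peak printed above held no repeated 75-base window and no 24-base word with many copies.

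COL7A1, the chain of the anchoring fibrils that tie skin epithelium to the dermis, was the most covered collagen in RS. It spans only 31.3 kb, yet 1 RS peak of 1201 bp covered 3.84% of it and 1 DiffBind region of 2201 bp covered 7.04%. In its length class 13.4% of coding genes had an RS peak and 14.2% a DiffBind region. The RS peak and the DiffBind region did not overlap, since the middle of the peak lay 21.6 kb from the gene start and that of the region 29.9 kb. COL7A1 was the only collagen under 100 kb with an RS peak, out of 18, where the length-matched number was 2.83.

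Of the short-chain network collagens, COL8A1 (161 kb) had 1 DiffBind region covering 1.12%, and 47.7% of that region's 75-base windows occurred elsewhere in the genome. COL8A2 and COL10A1, the latter a collagen of cartilage that is turning to bone, had no region. No RS peak lay in any of the 3, against a length-matched number of 1.05.

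Fibril-associated collagens sit on the surface of larger fibrils. RS peaks lay in 4 of their 10 genes, against a length-matched number of 4.11, and DiffBind regions in 5, against 3.44. COL21A1 (338 kb) had the most RS peaks of any collagen, 6 peaks covering 1.31%, and 5 DiffBind regions covering 1.42%. COL22A1 (326 kb) had 3 RS peaks covering 0.860% and no DiffBind region. COL14A1 (314 kb) had 2 RS peaks covering 0.383% and 1 DiffBind region covering 0.255%. COL19A1 (346 kb) had 2 RS peaks covering 0.348% and 1 DiffBind region covering 0.174%. These 4 genes are among the longest collagens, and all but COL22A1 had both kinds of region. COL16A1 (52.1 kb) had 1 DiffBind region covering 3.46% and COL20A1 (41.7 kb) had 1 covering 1.44%, neither with an RS peak. The type IX chains COL9A1, COL9A2 and COL9A3, which coat cartilage fibrils, had none.

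COL12A1, which encodes a collagen on the surface of type I fibrils, was the 1 collagen with a PRO peak. The peak spanned 1001 bp (chr6:75914801-75915801) within 2000 bp of the start of a gene of 122 kb, and covered 0.821% of the body. It overlapped 277 bases of the 5′ untranslated exon and continued into the first intron. Its GC content was 61.3% and its ratio of observed to expected CpG was 0.766, against a median ratio of 0.310 over all PRO peaks. It held no repeated window, and the nearest RS peak and DiffBind region were each 37.6 kb from the gene.

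Among the transmembrane collagens, COL23A1 (353 kb) had 4 RS peaks covering 1.19% and 5 DiffBind regions covering 2.32%. COL25A1, at 494 kb the longest collagen gene, had 1 RS peak covering 0.243%. COL13A1 and COL17A1, a collagen of the skin's hemidesmosomes, had none. Of the multiplexins, whose ends release fragments such as endostatin, COL15A1 (128 kb) had 2 RS peaks covering 1.41% and 1 DiffBind region covering 0.941%. COL18A1 (109 kb) had 2 RS peaks covering 1.66% and 2 DiffBind regions covering 3.32%. Both multiplexins were thus called in both lists, where the length-matched numbers were 0.789 for RS and 0.661 for DiffBind. COL26A1 (196 kb) had 3 RS peaks covering 2.14%, the second largest RS share, and 2 DiffBind regions covering 3.57%, whereas COL28A1 had none.

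**Figure D3:**
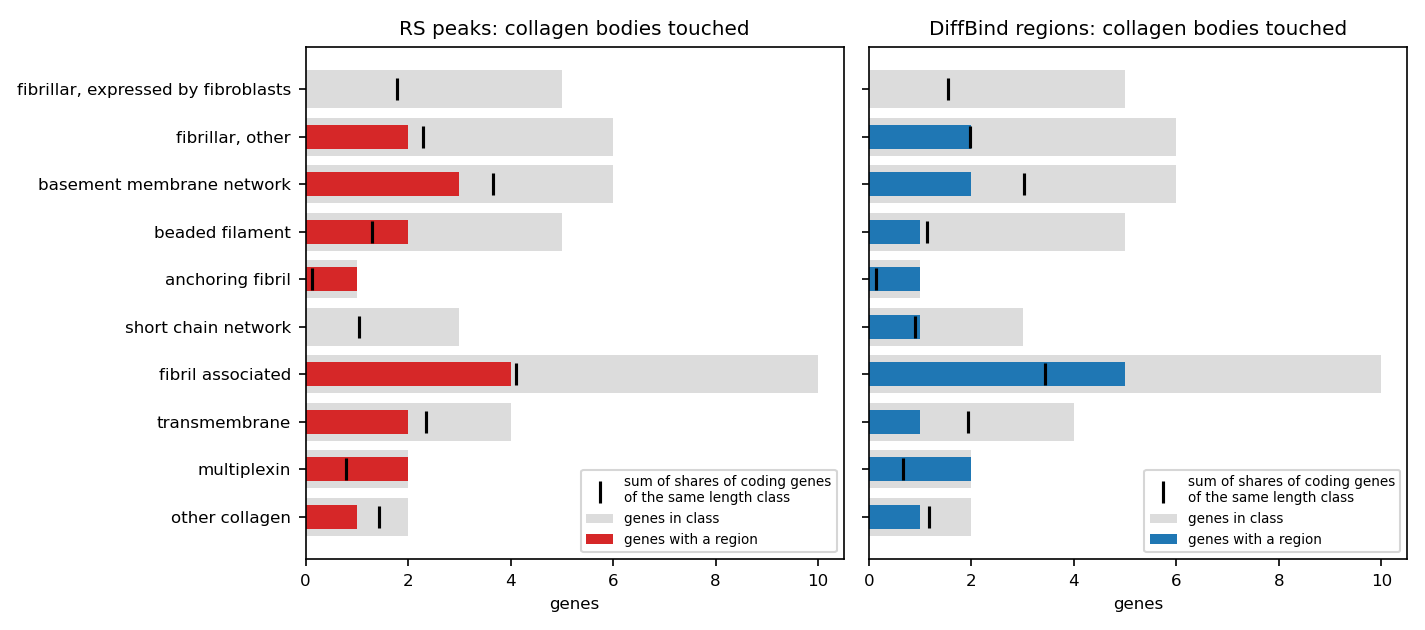
For each class of collagen, grey bars give the number of genes, coloured bars the number with an RS peak (left, red) or a DiffBind region (right, blue) in the body, and black ticks the length-matched number. The expressed fibrillar class reads 0 of 5 with ticks at 1.78 and 1.55, and the fibril-associated class reads 4 and 5 of 10 with ticks at 4.11 and 3.44.

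Of all collagens of at least 100 kb, 16 of 26 had an RS peak, against a length-matched number of 16.1, and 11 of 26 a DiffBind region, against 13.3. Below 100 kb, 1 of 18 had an RS peak, against 2.83, and 5 of 18 a DiffBind region, against 2.67. The DiffBind genes of the short group were COL2A1, COL7A1, COL11A2, COL16A1 and COL20A1. COL7A1 is in both short groups, so the lists differed by 4 short genes, a gap that was not tested. Over all coding genes under 100 kb, the RS list reached 2108 and the DiffBind list 1929.

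**Figure D4:**
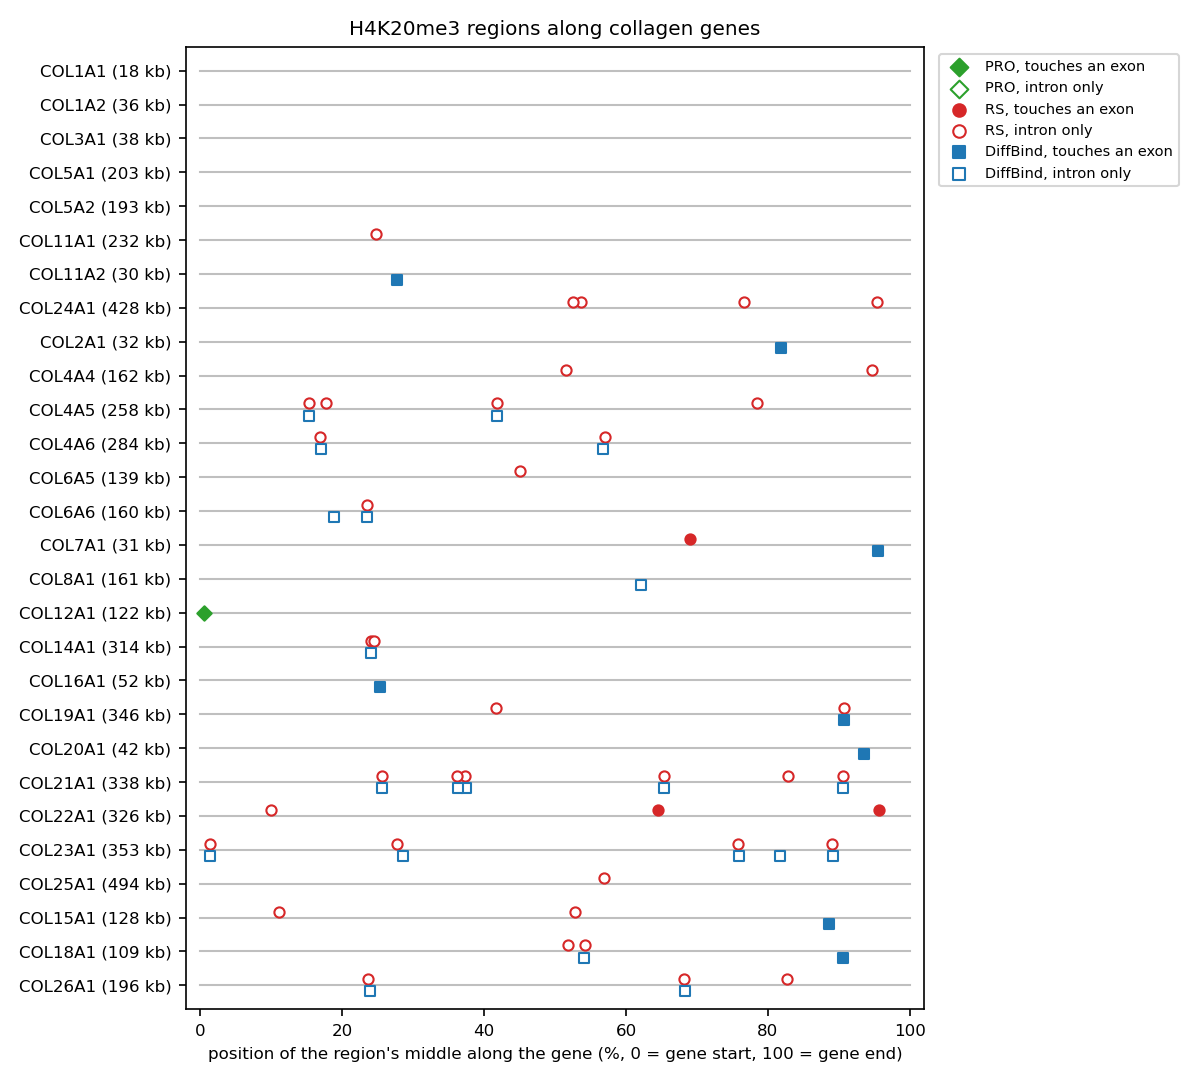
Each line is a collagen gene drawn from its start (0%) to its end (100%), for the 5 expressed fibrillar collagens and the 23 collagens with a region, with markers at the middle of each PRO peak, RS peak and DiffBind region. Filled markers touch an exon, which holds for 3 of 41 RS peaks and 8 of 29 DiffBind regions, and the lines of the 5 expressed fibrillar collagens are bare.

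The 41 RS peaks in collagens were short and mostly in introns. They ran from 201 to 2001 bp with a median of 801 bp, the same median as the whole RS list, whose longest peak was 65401 bp. Exons were touched by 3 of 41 (7.32%), beside 19.3% of RS peaks in coding genes. That background was not matched for gene length, and 40 of the 41 peaks lay in collagens of at least 100 kb. The 3 exonic peaks were the COL7A1 peak, over 6 coding exons, and 2 peaks of COL22A1, each over 1 coding exon. Split into 3 equal parts from start to end, the bodies held 13, 15 and 13 RS peaks, so the peaks gathered at neither end.

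Their base composition was compared with RS peaks of coding genes and with the whole list. Median GC content was 51.4% in collagens, 48.9% in RS peaks of coding genes and 49.4% over all RS peaks. The median ratio of observed to expected CpG was 0.241 in collagens, 0.228 in RS peaks of coding genes and 0.198 over all RS peaks. A repeated 75-base window was present in 21 of 41 (51.2%), beside 47.1% of RS peaks in coding genes and 47.8% of all.

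Of the 29 DiffBind regions in collagens, 18 overlapped an RS peak and 11 did not. Exons were touched by 1 of the 18, beside 25.1% of DiffBind regions that overlapped an RS peak in coding genes. They were touched by 7 of the 11, beside 38.1% of those in coding genes without an RS peak. Over all 29 it was 8 (27.6%), beside 28.5%. These background shares were not matched for gene length either. Median GC content was 50.8% for the 18 and 53.4% for the 11, with ranges that overlapped, from 43.4% to 57.2% and from 45.1% to 61.9%. The study reports that most of its differential peaks, a longer list than this one, had more H4K20me3 in RS than in PRO. Since the list used here gives no direction, that of each exonic region was not known. The counts of 7 and 11 are small, and regions of 1 gene share that gene.

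Some of the exonic regions lay over the part of the gene that encodes the triple helix, and others did not. The COL2A1 region covered 4 whole coding exons of 54, 162, 108 and 108 bases, each a multiple of 9 bases, the length of a glycine-X-Y triplet. Of its 144 codons, 48 (33.3%) encoded glycine, and each of the 48 was followed by another glycine 3 codons later. The printed COL2A1 sequence shows the exon of 162 bases.

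In COL16A1, 29 of 84 codons under the region encoded glycine, in 5 exons. In COL7A1, 30 of 86 codons under the RS peak did, against 18 of 176 under the DiffBind region nearer the gene end. In COL15A1 it was 15 of 48 and in COL19A1 11 of 31, both under DiffBind regions. Under the exonic RS peaks of COL22A1 it was 5 of 15 and 5 of 14. In COL11A2 it was 9 of 81 and in COL18A1 0 of 14, values below that of the triplet repeat, as in the DiffBind region of COL7A1. About 1 codon in 3 was thus glycine under 4 of the 8 exonic DiffBind regions and all 3 exonic RS peaks. Over the whole coding sequences of these genes, glycine made up from 15.9% (COL15A1) to 27.3% (COL2A1) of codons. Whether regions lay over helix exons more often than over other exons was not tested. The COL20A1 region lay in an exon outside the coding sequence, and a DiffBind region of COL18A1 also overlapped the neighbouring gene SLC19A1, so it cannot be assigned to COL18A1 alone.

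Helix exons resemble each other between collagens, so the exonic regions were searched for repeated sequence. Those of COL2A1, COL7A1, COL11A2, COL15A1, COL16A1, COL19A1 and COL20A1, and 1 of COL22A1, held no 75-base window that occurs elsewhere in the genome. The other exonic peak of COL22A1 had 3.01% of its windows repeated, and the exonic region of COL18A1 had 33.8%.

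The genes that modify, cut, link, bind and degrade collagen were read in the same way. Of 18 genes for the modification and secretion of procollagen, such as the prolyl and lysyl hydroxylases, 0 had an RS peak in the body, against a length-matched number of 3.69. In the same list 2 had a PRO peak, against 0.689, and 1 a DiffBind region, against 3.26. SERPINH1, which encodes the collagen chaperone HSP47, had a PRO peak over 7.47% of its 10.7 kb body and a DiffBind region over 22.4%, both also in its promoter, and no RS peak. P4HA3, a prolyl hydroxylase subunit, had a PRO peak over 0.792% of its body and no other region. PLOD1, a lysyl hydroxylase gene, had a PRO peak in its promoter only.

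Of 8 genes for the cleavage of procollagen, 3 had an RS peak (length-matched number 3.31) and 1 a DiffBind region (2.78). Of 5 cross-linking genes of the lysyl oxidase family, 1 had an RS peak (0.829) and 0 a DiffBind region (0.730). Of 7 collagen receptor genes, 1 had an RS peak (2.53) and 1 a DiffBind region (2.12). The gene with the RS peak, ITGA11, encodes the integrin chain that binds fibrillar collagen and also had the only PRO peak of the receptor list, over 0.591% of its body, against 0.148% for the RS peak. Of 9 genes for collagen degradation, matrix metalloproteinases and their inhibitors, 0 had a region of any list in the body, where the length-matched numbers were 1.32 for RS and 1.23 for DiffBind.

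Of 30 other matrix genes, 9 had an RS peak (9.43) and 7 a DiffBind region (8.06). NID1, a basement membrane linker, had a PRO peak over 0.449% of its body, RS peaks over 4.26% and DiffBind regions over 5.83%. FBN3, a fibrillin gene on chromosome 19, had RS peaks over 5.23% and DiffBind regions over 14.3%. The lists of cleavage and other matrix genes were thus near their length-matched numbers in RS, as the collagens other than the expressed fibrillar ones were. The modification and degradation lists, like the expressed fibrillar and the short-chain network collagens, had no RS peak in any body. These lists of 18, 9, 5 and 3 genes were not tested.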

How the data were processed

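H4K20me3 ChIP-seq of PRO and RS IMR90 cells had 2 samples per group. According to the submitters' notes, the authors used CASAVA 1.8.2, Trim Galore 0.3.0, Bowtie2 2.1.0 on hg19, Picard 1.98, SICER 1.1 in windows of 200 bp with total histone H4 as control, and DiffBind 1.8.3. They intersected the peaks of both antibodies within a group. The deposited files hold positions only, in bases, with no count, score, p-value, fold or direction. The deposited DiffBind list is shorter than the study describes, so its values hold for this list. SICER joins neighbouring windows, so edges are coarse. Depth was not analysed here, and no interval that needs it was computed.

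Positions are given 1-based on the GRCh37 sequence, which shares hg19 coordinates. Overlaps, the length-matched numbers (10 length classes), flanks, GC content, CpG ratios and repeated 75-base windows were computed with python 3.11.15, numpy 2.4.6, pandas 2.3.3 and numba 0.67.0, and the code was tested on simulated data. Figures were drawn with matplotlib 3.10.9. The named genes are every collagen with a region of any list, the 5 expressed fibrillar collagens, and pathway or matrix genes with a PRO peak in the body or at least 5% of the body in RS peaks. PLOD1 and the other collagens without a region were named after their values were seen. Members and lists were chosen with earlier results of these data known. Alternatives covered promoter size, body limits, length matching, region length, overlap and repeats.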

Additional observations from a re-analysis of the deposited data

How the results depend on the processing

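The alternatives on region length, overlap and repeats only remove regions or ask for more overlap. The bodies of COL1A1, COL1A2, COL3A1, COL5A1 and COL5A2 were already empty, so these alternatives could not change that. Extending bodies by 5000 bp could, and it brought COL1A1 into the DiffBind count and COL5A1 into the RS count. Of 108 alternative values for 18 results, 89 moved by less than 1.5-fold and 19 by more or to or from 0. The 89 include values that could not move, so they do not measure stability as a whole. Every region in a collagen was at least 201 bp long and lay wholly inside the gene, and the larger overlap asked for was shorter than that. Leaving out regions of 1 base, or asking for more overlap, therefore could not change any collagen count. Only the length-matched numbers could change there. With exons only, RS peaks lay in 2 collagens and DiffBind regions in 8, and the covered shares were 0.0903% for PRO and 0.113% for RS. With promoters of 5000 bp on either side, RS peaks lay in 1 collagen promoter and DiffBind regions in 2. With the starts of all coding transcripts these counts were 2 and 1. Without regions that hold a repeated 75-base window, RS peaks lay in 11 collagens, all of them outside the 5 expressed fibrillar genes, the covered shares were 0.269% for RS and 0.305% for DiffBind, and the PRO ratio of observed to length-matched genes was 0.526 in place of 0.348. With regions of at least 1000 bp that ratio was 1.17 and the RS covered share 0.323%, as fewer regions entered. Adding COL5A3, COL11A1 and COL27A1 to the expressed list gave 1 gene with an RS peak, COL11A1. Against the other fibrillar collagens alone, the comparison counts were 0 for PRO, 2 for RS and 2 for DiffBind. In each other case the cause was not tested.

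No paired analysis was possible because the lists merge both antibodies of a group. For the same reason the 10 alternatives that leave out a replicate or add a replicate block gave no value. With 1 list per group and no depth, a missing region is not shown to be a missing mark, and whether the lists' sizes reflect depth was not tested.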

Other observations

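Over 1 Mb on either side, COL5A3 and COL23A1 had the highest share of RS peaks around them of the 44 collagens. COL5A3, a type V chain gene of 50.9 kb on chromosome 19, had no region in its body, while RS peaks covered 5.20% of its 100 kb flanks and 10.1% of its 1 Mb flanks. Within 1 Mb of it lay 12 zinc finger genes. COL23A1 had 7.02% of its 1 Mb flanks in RS peaks with 6 zinc finger genes in them. Its 100 kb flanks had 1.90%. The 1 Mb median over all collagens was 1.11%. Whether these neighbours carry the covered bases was not tested.

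Wider promoter windows brought in few collagens. With 5000 bp on either side of the gene start, COL23A1 gained an RS peak and a DiffBind region, and COL17A1 a DiffBind region. With the starts of all coding transcripts, COL4A4 and COL7A1 gained an RS peak and COL18A1 a DiffBind region. None of the 5 expressed fibrillar collagens was added by either window.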
